A study of Mus musculus with 27 samples.

Results

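Spermatocytes of the mouse lines Strep1 and Strep2 were compared with each other. In both lines the Strep II tag of 8 amino acids was inserted within the N-terminal part of MIWI, the protein of Piwil1, at a different place in each line. The comparison rests on 6 of the 27 samples of the series, namely 3 long RNA libraries of 4n cells from Strep1 and 3 from Strep2. They were chosen by genotype, DNA content and library type, with no measured value in the choice. Wild-type (WT) 4n cells gave 3 further libraries, and 1n cells of Strep1 and Strep2 gave 6. The labels give 4n as spermatocytes and 1n as spermatids. Each sample held around 500000 cells sorted from a suspension of testicular cells. Age, background strain, zygosity and number of founders are not given in the sources used here, and the WT label names no tagged line. RP68 is the code of Strep1 and RP85 that of Strep2 in the genotype labels, whereas the growth protocol speaks of RP85 and RP86. The tag position of each line is therefore not settled, and groups go by genotype label. The labels do not tie libraries to animals, so whether the spread behind each p-value is between animals or technical is not given.

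MIWI is an Argonaute protein of the PIWI clade and a slicer. It carries pachytene piRNAs, which are cut from long precursor transcripts of dedicated genomic clusters in spermatocytes and stay bound to MIWI into the round spermatid. Male mice that lack Piwil1 are sterile, with spermatogenesis stopped at the round spermatid stage. Per the series design, the long RNA libraries served to check gene and repeat expression in the tagged lines.

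The 6 libraries held an estimated 39.2 to 41.4 M reads in Strep1 and 43.8 to 53.1 M in Strep2, against 45.3 to 63.2 M in WT. Values printed are RPM as deposited (reads scaled to a common library total, not per gene length), so levels are not compared between genes, and fold changes come from values scaled further between libraries. Pearson correlations of log2(RPM + 0.1) across genes were 0.988 to 0.991 within Strep1 and 0.988 to 0.994 within Strep2. The spermatocyte histone H1f6 averaged 343 ± 76.2 RPM in 4n Strep1 and 415 ± 45.8 in 4n Strep2 (SD, n = 3 each), while the acrosomal marker Acrv1 averaged 14.4 ± 6.45 and 12.2 ± 2.11. In 1n Strep1 and 1n Strep2 cells H1f6 averaged 3.93 and 3.87 RPM and Acrv1 263 and 272. The spermatocyte marker Sycp1 differed less. It averaged 56.4 and 62.8 RPM in 4n Strep1 and 4n Strep2, and 38.7 and 42.4 in 1n Strep1 and 1n Strep2. Round spermatid genes summed to 2756 to 3215 RPM in 4n Strep1 and 2622 to 3335 in 4n Strep2. Elongating spermatid genes gave 4095 to 4914 and 4071 to 5207, and meiotic prophase genes 2805 to 3265 and 2800 to 3424. Somatic and spermatogonial markers were present at low levels in both lines. Sertoli markers summed to 70.4 to 87.6 RPM in Strep1 and 77.3 to 89.2 RPM in Strep2, against 72.6 to 84.2 RPM in WT, Leydig markers to 17.8 to 19.3 RPM in Strep1 and 16.2 to 19.7 RPM in Strep2, against 16.1 to 19.9 RPM in WT, and peritubular and endothelial markers to 5.504 to 7.68 RPM in Strep1 and 6.14 to 7.94 RPM in Strep2, against 6.36 to 7.24 RPM in WT. Spermatogonial markers summed to 49.0 to 77.1 RPM in Strep1 and 68.1 to 81.6 RPM in Strep2, against 47.7 to 58.2 RPM in WT. Of the defining Sertoli markers, Sox9 averaged 0.0856 RPM in Strep1 and 0.222 RPM in Strep2. Wt1 and Amh averaged 0.411 and 0.465 RPM in Strep1 and 0.357 and 0.434 RPM in Strep2. The Sertoli gene Fshr and the macrophage gene C1qa were at 0 in all 3 Strep1 libraries and averaged 0.0145 and 0.00628 RPM in Strep2.

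Piwil1 had 749, 695 and 796 RPM in Strep1 and 821, 892 and 763 RPM in Strep2, against 709, 558 and 653 RPM in WT. The 2 tagged lines overlapped, and Strep1 overlapped WT, while every Strep2 library lay above every WT library. The log2 fold change, Strep1 minus Strep2, was -0.12 (standard error, SE, 0.08), which did not pass the test (limma adjusted p = 0.809). Against WT it was 0.15 in Strep1 and 0.27 in Strep2 (limma adjusted p = 0.724 and 0.194). The authors' deposited table gave 0.07 and 0.24, with deposited adjusted p of 0.939 and 0.0327. Piwil1 lies on chr5:128779588-128832538, plus strand, GRCm39.

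Klb, Foxp4 and Niban1 mark the contrast between the lines. Klb, a co-receptor for some endocrine fibroblast growth factors, and Foxp4, a fork head transcription factor, were higher in Strep1. Niban1, a protein of the cell stress response, was below 0.5 RPM in all 3 Strep1 libraries. The 300 bases before the outermost annotated start of these 3 genes are shown because the genes carry the contrast, with CG dinucleotides in capitals, the strand as transcribed.
Klb: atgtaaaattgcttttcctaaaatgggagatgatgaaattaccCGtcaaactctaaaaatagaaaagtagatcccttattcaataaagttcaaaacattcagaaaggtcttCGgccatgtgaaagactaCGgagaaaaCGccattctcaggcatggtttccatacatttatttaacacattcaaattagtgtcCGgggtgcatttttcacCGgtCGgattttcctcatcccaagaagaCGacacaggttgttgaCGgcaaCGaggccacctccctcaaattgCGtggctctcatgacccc
Foxp4: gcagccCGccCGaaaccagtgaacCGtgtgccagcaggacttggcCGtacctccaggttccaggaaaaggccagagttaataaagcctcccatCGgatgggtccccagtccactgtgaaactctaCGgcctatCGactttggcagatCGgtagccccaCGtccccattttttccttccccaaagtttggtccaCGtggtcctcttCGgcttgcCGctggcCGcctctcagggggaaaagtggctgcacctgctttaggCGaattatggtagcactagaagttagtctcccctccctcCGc
Niban1: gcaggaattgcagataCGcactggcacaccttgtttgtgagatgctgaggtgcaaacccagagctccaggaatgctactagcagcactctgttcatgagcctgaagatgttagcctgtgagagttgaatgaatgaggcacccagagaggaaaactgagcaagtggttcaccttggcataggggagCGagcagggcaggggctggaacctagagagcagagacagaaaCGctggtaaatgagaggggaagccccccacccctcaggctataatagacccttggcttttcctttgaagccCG
They were read from the GRCm39 genome at chr5:65505357-65505656 (plus strand) for Klb, chr17:48235700-48235999 (minus strand) for Foxp4 and chr1:151445930-151446229 (plus strand) for Niban1, with starts from GENCODE vM39. The windows hold 11, 15 and 4 CG dinucleotides for Klb, Foxp4 and Niban1 in turn. The median over 21757 protein-coding genes was 7. The TATA box letters TATAAA, found on either strand of 14.9% of those windows, and the cyclic AMP response element TGACGTCA, found in 1.35%, occur in none of the 3, which says only that these letters are not in these windows.

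Klb had 32.7, 37.0 and 38.4 RPM in Strep1 and 1.81, 2.68 and 3.02 RPM in Strep2, against 1.96, 0.985 and 1.24 RPM in WT. Every Strep1 library lay above every other 4n library, and Strep2 and WT overlapped. The log2 fold change was 3.85 (SE 0.22, limma adjusted p = 8.3e-06). Foxp4 had 17.7, 15.4 and 15.1 RPM in Strep1 and 2.02, 2.64 and 1.97 RPM in Strep2, against 2.51, 2.24 and 2.39 RPM in WT. Strep2 and WT overlapped, and the log2 fold change between the tagged lines was 2.85 (SE 0.13, limma adjusted p = 1.41e-06). Niban1 had 0.344, 0.487 and 0.386 RPM in Strep1 and 36.3, 47.4 and 39.4 RPM in Strep2, against 43.0, 37.2 and 39.4 RPM in WT. It had the largest negative fold of all genes tested, -6.31 on the log2 scale (SE 0.12, limma adjusted p = 3.58e-09). These 3 genes came with the choice of the comparison because they had been seen to differ, so their values describe it and add no independent support. In the authors' deposited table of log2 fold changes against WT, Klb stood at 4.58 in Strep1 and 0.50 in Strep2, Foxp4 at 2.65 and -0.03, and Niban1 at -6.94 and -0.03. For Strep2 the deposited adjusted p was 0.0424 for Klb, 0.711 for Foxp4 and 0.781 for Niban1.

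**Figure D1:**
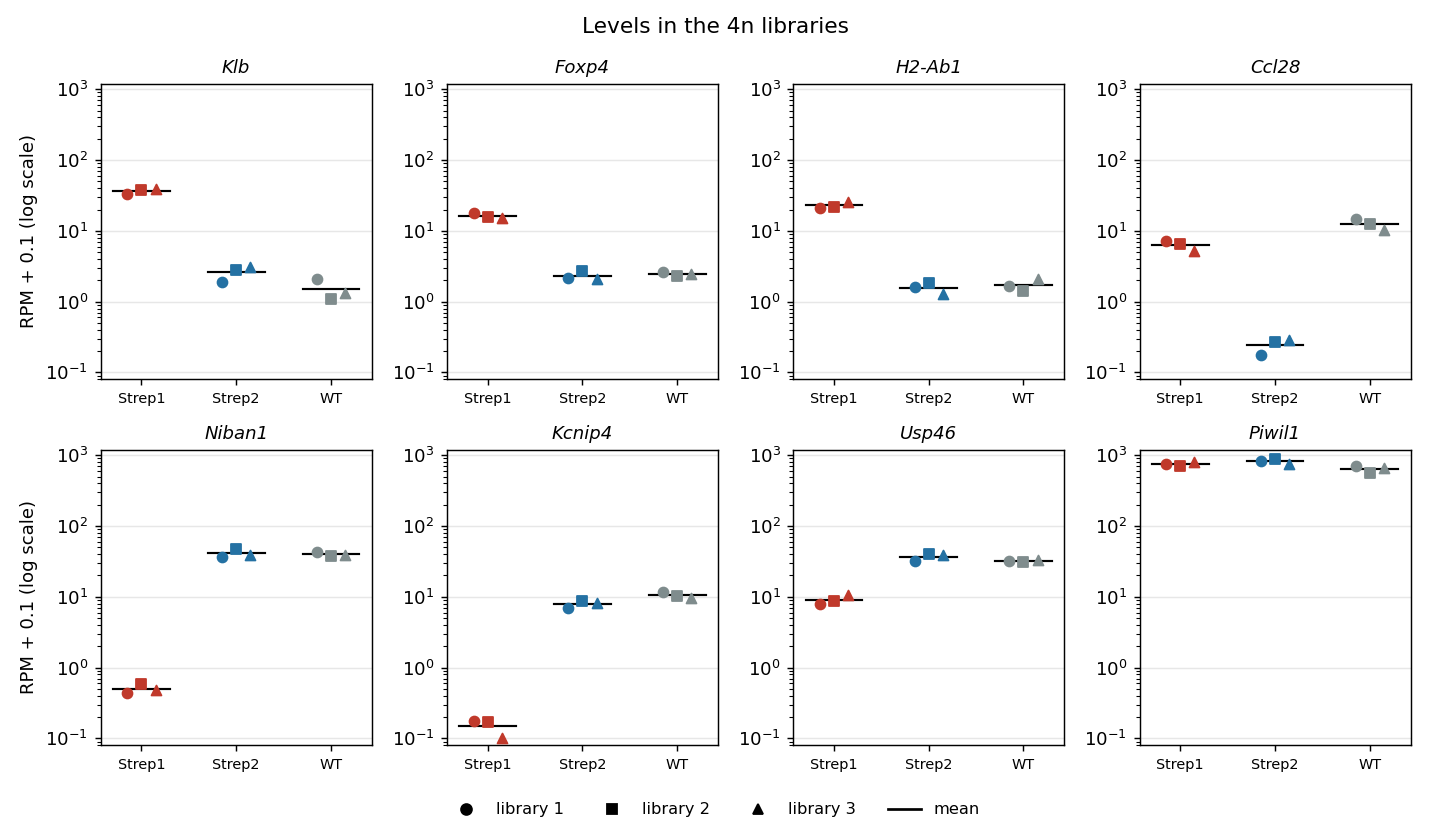
Levels of 8 genes in the 9 libraries of 4n cells, as deposited RPM plus 0.1 on a log axis, with Strep1, Strep2 and WT from left to right, a symbol per library and a bar at the mean. Klb, Foxp4 and H2-Ab1 are high in Strep1 alone, Ccl28 is low in Strep2 alone, Niban1, Kcnip4 and Usp46 are low in Strep1 alone, and Piwil1 lies between 558 and 892 RPM in all 9 libraries.

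Over all genes, 170 of 18463 tested (0.921%) were called at a false discovery rate of 0.05, with 98 (0.531%) higher and 72 (0.390%) lower in Strep1. A further measure of separation, libraries of the lines that do not overlap, was met by 1413 genes (7.65%) and by all 170 called genes. Of the called genes 113 differed at least 2-fold and 60 at least 4-fold, and the median size was 1.42 on the log2 scale. The median over all genes tested was -0.01. Predicted or clone names made up 73 of the calls. On the authors' deposited Salmon signal for the same libraries, an alternative added after the data were seen, limma called 142 of 18793 genes (0.756%), 87 higher (0.463%) and 55 lower (0.293%). Of the 170 called genes 144 had a Salmon value, 141 kept their sign and 110 were called there too.

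**Figure D2:**
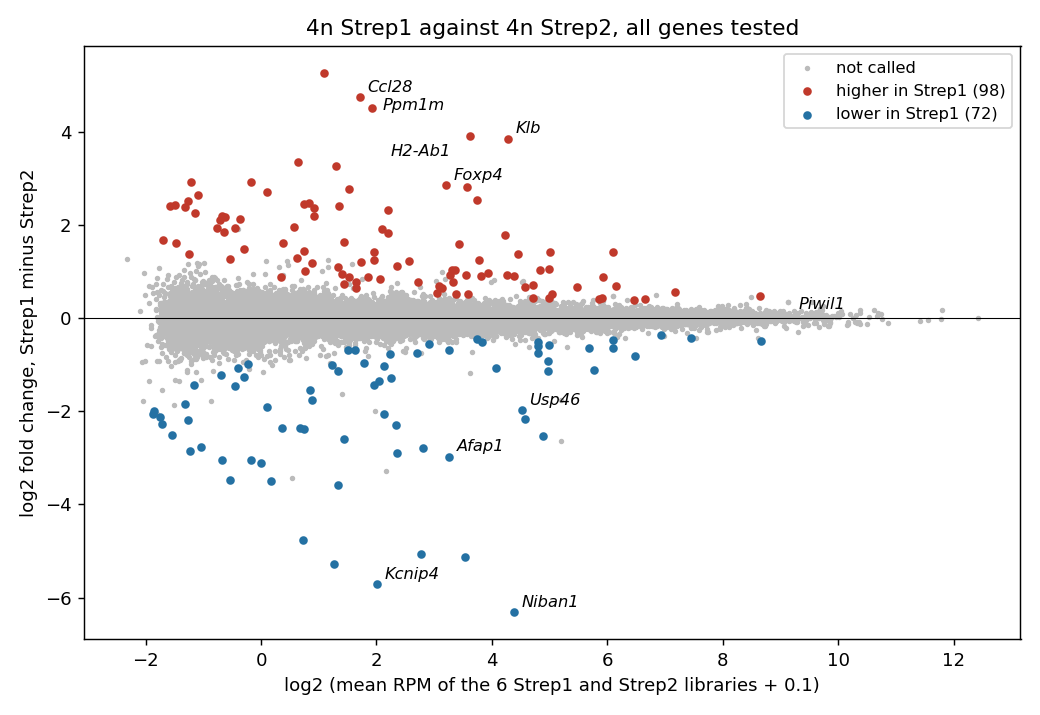
Log2 fold change, Strep1 minus Strep2, against the log2 mean level of the 6 libraries for the 18463 genes tested. The 98 red points are called higher in Strep1 and the 72 blue points called lower, and Piwil1 sits near 0 at the high end of the level axis.

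Set beside WT, most called genes had Strep1 as the line farther from the untagged level. The WT mean was nearer Strep2 in 142 of the 170 called genes and nearer Strep1 in 28. Among genes higher in Strep1 the split was 77 and 21, and among genes lower in Strep1 it was 65 and 7. Ccl28, a mucosal chemokine, is of the smaller class, with 7.14, 6.41 and 5.12 RPM in Strep1 and 0.0762, 0.170 and 0.183 RPM in Strep2, against 14.7, 12.4 and 10.1 RPM in WT. Strep2 was the low group and WT the high one. Its log2 fold change between the tagged lines was 4.74 (SE 0.23, limma adjusted p = 2.23e-06). Against WT it was -1.05 in Strep1 (limma adjusted p = 0.0907) and -5.79 in Strep2 (limma adjusted p = 1.86e-06). The authors' deposited table against WT gave -0.99 in Strep1, with a deposited adjusted p of 0.00024, and -6.11 in Strep2. Dipk1a, a kinase-like protein of the secretory pathway, had 4.03, 4.63 and 6.00 RPM in Strep1 and 0.566, 0.754 and 0.583 RPM in Strep2, with WT at 4.90, 4.66 and 5.14 RPM. Strep1 and WT overlapped, and Strep2 lay below both.

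Of the other genes higher in Strep1, the protein phosphatase Ppm1m had 7.33, 7.15 and 6.96 RPM in Strep1 and 0.250, 0.188 and 0.229 RPM in Strep2, against 0.243, 0.164 and 0.253 RPM in WT. The tagged lines differed by 4.51 on the log2 scale (SE 0.18, limma adjusted p = 7.14e-07) and Strep2 overlapped WT. Tmem37, a relative of calcium channel subunits, averaged 2.73 ± 0.240 RPM in Strep1 and 0.186 ± 0.0623 in Strep2, with a log2 fold change of 3.34. Elovl4, which lengthens very long fatty acids, averaged 1.76 ± 0.122 RPM in Strep1 and 0.197 ± 0.0914 in Strep2, and Ddr1, a collagen receptor kinase, 2.97 ± 0.243 in Strep1 and 0.590 ± 0.122 in Strep2 (SD, n = 3 each). Nme9 and Lgi2 followed with log2 fold changes of 1.95 and 1.90. Zfyve28, an endosomal protein, had 1.13, 0.617 and 1.75 RPM in Strep1 and 0.131, 0.232 and 0.171 RPM in Strep2. Its adjusted p of 0.0146 by limma did not hold in 4 of 19 alternative settings. Rps18-ps6, by its name a copy of Rps18, averaged 7.53 ± 1.76 RPM in Strep1 and 1.44 ± 0.266 in Strep2, and since it may share reads with that gene its level is uncertain. Its log2 fold change was 2.32 on RPM and 7.20 on the authors' deposited Salmon signal, where it had 451, 414 and 564 in Strep1 and 0, 0.780 and 0 in Strep2, against 1.04, 0 and 0 in WT.

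Among genes lower in Strep1, the potassium channel partner Kcnip4 had 0.0765, 0.0731 and 0 RPM in Strep1 and 6.76, 8.67 and 7.99 RPM in Strep2, against 11.6, 10.3 and 9.42 RPM in WT. Strep1 was below 0.1 RPM throughout, so the log2 fold change of -5.71 depends on the pseudocount of 0.1 RPM (SE 0.22, limma adjusted p = 5e-07). Fcmr, an Fc receptor for IgM, averaged 0.0327 ± 0.0135 RPM in Strep1 and 1.03 ± 0.0596 in Strep2 (SD, n = 3 each). Afap1, which binds actin filaments, had 1.94, 1.57 and 2.68 RPM in Strep1 and 14.3, 18.1 and 18.4 RPM in Strep2, a log2 fold change of -2.97. The collagen chain Col6a4 averaged 1.68 ± 0.527 RPM in Strep1 and 12.2 ± 1.62 in Strep2 (SD, n = 3 each), a log2 fold change of -2.80. Neither gene overlapped between the tagged lines.

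Other genes fell by less. Usp46, a deubiquitinase, had 7.87, 8.71 and 10.5 RPM in Strep1 and 31.5, 39.5 and 38.7 RPM in Strep2, against 32.4, 30.7 and 32.5 RPM in WT. Its log2 fold change was -1.98 (SE 0.09, limma adjusted p = 1.41e-06). Pik3cb, a catalytic subunit of phosphoinositide 3-kinase, averaged 21.2 ± 0.563 RPM in Strep1 and 41.0 ± 1.71 in Strep2, and the hydrolase Abhd14a 33.8 ± 6.11 in Strep1 and 74.7 ± 7.72 in Strep2 (SD, n = 3 each). Their log2 fold changes were -0.92 and -1.12, and both were called in all 20 alternative settings. The ribosomal protein gene Rpl29, which has close copies in the genome, averaged 8.41 ± 1.32 RPM in Strep1 and 39.0 ± 8.43 in Strep2. Il20rb, a cytokine receptor chain, Mthfsl and Erdr1 were called with log2 fold changes of -1.55, -2.38 and -2.60, and copies of Erdr1 on the sex chromosomes make its level uncertain. Mpped1, Mras and Tent5a, at -1.15, -1.01 and -0.98, complete the 15 largest falls. They were not called in 8, 13 and 13 of 20 alternative settings, and Mthfsl was not called on the Salmon signal (adjusted p = 0.0970).

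Genes of the major histocompatibility complex encode proteins that present peptides to T cells. Of the 45 H2 genes listed, 14 were tested, and 6 were called higher in Strep1 and none lower. Of all genes tested, 0.531% were called higher and 0.390% lower. Of the 14, 6 passed the filter of 0.3 RPM in 3 libraries only through the Strep1 libraries, H2-Q10, H2-Q2, H2-Q4 and H2-K2 of the calls among them, so the count of calls is no measure of the group. Among all genes tested, 475 passed only in that way, and 20 of those were called. H2-Ab1, the beta chain of the class II molecule I-A, had 21.1, 21.96 and 25.4 RPM in Strep1 and 1.50, 1.75 and 1.18 RPM in Strep2, against 1.56, 1.29 and 2.00 RPM in WT. Its log2 fold change was 3.90 (SE 0.16, limma adjusted p = 7.14e-07). The class I gene H2-D1 had 2.72, 2.57 and 3.42 RPM in Strep1 and 0.521, 0.538 and 0.318 RPM in Strep2, with a log2 fold change of 2.46. The other called genes were at low levels. H2-Q4 had 1.02, 1.11 and 1.03 RPM in Strep1 and 0.167, 0.298 and 0.164 RPM in Strep2, and H2-Q10 0.664, 0.746 and 0.708 RPM in Strep1 and 0.0244, 0.0433 and 0.0201 RPM in Strep2. H2-Q2 had 0.485, 0.433 and 0.475 RPM in Strep1 and at most 0.0132 RPM in Strep2, and the annotated pseudogene H2-K2 had 0.534, 0.507 and 0.472 RPM in Strep1 and 0.120, 0.131 and 0.160 RPM in Strep2. The size of their fold changes depends on the pseudocount and the quantification. Over the alternatives in which they were tested the log2 values ran from 1.14 to 2.30 for H2-Q4, 1.18 to 3.92 for H2-Q10, 0.92 to 4.27 for H2-Q2 and 0.66 to 4.09 for H2-K2. The class I gene H2-K1 stood at -0.30, with 17.5 ± 2.26 RPM in Strep1 and 21.8 ± 1.44 in Strep2 (SD, n = 3 each), and was not called (limma adjusted p = 0.290). Class I genes are near copies of each other, so reads may be shared among them. Summed over all 45 H2 genes in the table, the level was 58.0, 58.8 and 68.9 RPM in Strep1 and 33.8, 40.1 and 36.1 RPM in Strep2, against 37.6, 31.3 and 35.5 RPM in WT. The tagged lines did not overlap, and the exact two-sided permutation test gave p = 0.1, the smallest that 3 against 3 libraries allow. Most of the difference between these sums is H2-Ab1, given above. They therefore do not show a rise of the other H2 genes as a group, and a sum without H2-Ab1 was not tested. Without Strep1 replicate 3 and Strep2 replicate 2 only 2 Strep1 libraries remain, so genes that pass the filter through Strep1 alone leave the test. Of the 8 H2 genes then tested, 2 were called and the median log2 fold change was 0.30.

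H2-Ab1 is also a marker of antigen-presenting cells, and it was the called member of the 3 tested genes of the macrophage and blood list. The list summed to 23.4 to 27.5 RPM in Strep1 and 2.69 to 3.72 RPM in Strep2, against 2.95 to 3.92 RPM in WT. Its other 19 genes together gave 1.66 to 2.28 RPM in Strep1 and 1.26 to 1.97 RPM in Strep2, against 1.65 to 1.91 RPM in WT. Among defining markers, Adgre1 averaged 0.415 RPM in Strep1 and 0.294 in Strep2, and Csf1r 0.0501 RPM in Strep1 and 0.0374 in Strep2. In bulk samples fewer cells of a type and less RNA per cell cannot be told apart.

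Of 32 tested genes that make or use piRNAs none was called in either direction by limma (0.921% of all genes were called). At an unadjusted p under 0.05 there were 5 of the 32, against 6.83% of all genes, and 0 were called on the Salmon signal. The median log2 fold change was -0.07, within a range of -0.43 to 0.23. The Tudor protein Tdrkh stood at -0.34 (SE 0.12), the piRNA biogenesis nuclease Pld6 at -0.24 (SE 0.10), the transcriptional activator Mybl1 at -0.05 (SE 0.07), the helicases Mov10l1 and Ddx4 at -0.07 (SE 0.08) and -0.02 (SE 0.07), and the scaffold Tdrd6 at 0.03 (SE 0.06). A gene that missed the threshold is not thereby shown to be equal in the lines.

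Stage markers were also mostly uncalled. Of 40 meiotic prophase genes 1 was called, against 0.921% of all genes, namely Rnf212, a factor that marks crossover sites, with 2.80, 3.70 and 3.56 RPM in Strep1 and 4.98, 7.04 and 5.66 RPM in Strep2, against 2.41, 2.13 and 2.20 RPM in WT. Strep2 was the highest group. The log2 fold change was -0.76 (SE 0.14, limma adjusted p = 0.0317), and 14 of 20 alternative settings did not call it. None of 27 late spermatocyte, 33 round spermatid and 34 elongating spermatid genes was called by limma, with medians of -0.03, 0.04 and 0.11 and with 2, 0 and 1 at an unadjusted p under 0.05. None of 14 spermatogonial, 15 Sertoli, 4 Leydig and 9 peritubular and endothelial genes was called, with medians of -0.21, -0.20, 0.03 and 0.05 and with 3, 3, 0 and 2 at that p. Heat shock, p53 target, interferon and small nuclear RNA genes (20, 11, 6 and 5 tested) had no call and 0, 1, 1 and 0 at that p. The 47 replication-dependent histones had no call, a median of -0.29 and 12 at that p (25.5%, against 6.83% of all genes). On the Salmon signal no gene of these lists was called. Of 232 ribosomal protein genes and pseudogenes 1 was higher (Rps18-ps6) and 1 lower (Rpl29), against 0.531% and 0.390% of all genes. In that list 21 had an unadjusted p under 0.05 (9.05%, against 6.83% of all genes), and 4 were called on the Salmon signal. Klb was the called gene of 14 for fibroblast growth factor signalling, where its partner receptor Fgfr4 stood at 0.38 (adjusted p = 0.793) and its relative Kl at 0.03. Foxp1 and Niban3, the other tested members of the Foxp4 and Niban1 families, stood at 0.01 and -0.23.

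RNA encoded by the mitochondrial genome, taken as a sum, varied within the lines as much as between them. Summed over 37 genes it was 9491, 7039 and 5412 RPM in Strep1 and 6728, 7741 and 4806 RPM in Strep2, against 5322, 3907 and 4303 RPM in WT. The exact two-sided permutation test between the tagged lines gave p = 0.6. The 20 tested genes all had positive log2 fold changes, from 0.09 to 1.64 with a median of 0.30, and 3 had an unadjusted p under 0.05. Without both Strep1 replicate 3 and Strep2 replicate 2 the median of 19 tested genes was 0.70. The leucine tRNA gene mt-Tl1 was called at a log2 fold change of 1.64 (limma adjusted p = 0.0259), with 5.87, 3.18 and 2.96 RPM in Strep1 and 1.38, 1.43 and 0.832 RPM in Strep2. The separate tRNA entry for the same place was the 1 called of 14 tRNAs (7.14%), and mt-Tl1 was not called in 8 of 20 alternative settings.

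Of 395 piRNA clusters tested, the sources of long precursor transcripts, 303 had a positive log2 fold change, with a median of 0.11, and 9 (2.28%) were called, all higher, while 85 had an unadjusted p under 0.05. Clusters with libraries that did not overlap numbered 111 (28.1%). The called cluster pi-Hjurp.2 on chromosome 1 had 47.8, 48.6 and 47.5 RPM in Strep1 and 32.3, 36.3 and 34.2 RPM in Strep2, against 49.3, 41.8 and 43.6 RPM in WT. There the log2 fold change between the tagged lines was 0.51 (SE 0.08, limma adjusted p = 0.0113). In all 9 called clusters the WT mean was nearer Strep1. Against WT their log2 fold changes ran from -0.56 to -0.30 in Strep2 and from -0.08 to 0.11 in Strep1. The gene Hjurp itself was called with a log2 fold change of 0.51, and reads of the gene and the clusters named for it may be the same. The other 8 called clusters had log2 fold changes of 0.34 to 0.52. All clusters together gave 49813, 51296 and 49126 RPM in Strep1 and 48520, 45291 and 46849 RPM in Strep2 (exact two-sided permutation p = 0.1), and after the scaling p = 0.3. In WT they gave 50882, 48590 and 48925 RPM, which overlapped Strep1. The cluster calls rested on single libraries. Without Strep1 replicate 3 the count was 82, without Strep2 replicates 1, 2 and 3 in turn 2, 5 and 0, without Strep1 replicate 1 or replicate 2 it was 0, and with no scaling 0.

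Of 3280 repeat names tested 2 (0.061%) were called, the simple repeats (TCCCCCT)n and (AGGCCC)n, both lower in Strep1, and 76 had an unadjusted p under 0.05. Libraries of the lines did not overlap in 142 (4.33%). (TCCCCCT)n averaged 0.649 ± 0.165 RPM in Strep1 and 3.49 ± 0.437 in Strep2 (SD, n = 3 each), a log2 fold change of -2.25. Subfamilies of the active LINE elements (L1Md) summed to 4501, 4237 and 2847 RPM in Strep1 and 5399, 2488 and 4128 RPM in Strep2 (exact two-sided permutation p = 1). The retroviral IAP elements summed to 811, 709 and 595 RPM in Strep1 and 710, 449 and 580 RPM in Strep2 (exact two-sided permutation p = 0.3). In both families Strep1 replicate 3 and Strep2 replicate 2 were the lowest of their line.

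The called genes lay close together on a few chromosomes. Joining neighbouring calls across gaps under 10 Mb and keeping runs of 4 or more gave 10 stretches on 6 chromosomes, which held 133 of the 170 called genes (78.2%). Inside them 10.1% of 1318 tested genes were called, and outside them 0.216% of 17145. The stretches were drawn around the calls themselves, so the share inside had to be the higher one. The stretch rule was taken from an earlier account of these data and is a description. The longest, chromosome 9 from 66031889 to 109760528, held 40 calls, among them Ppm1m, Elovl4, Nme9, Col6a4, Rpl29, Abhd14a, Pik3cb and Il20rb, with WT nearer Strep2 in 39. Chromosome 5 from 33877387 to 75270982 held 28, with Klb, Kcnip4, Afap1, Lgi2 and Usp46, and all 28 had WT nearer Strep2.

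Chromosome 1 held 3 stretches. That from 118249569 to 139588576 had 18 calls, with Tmem37 and Fcmr, that from 151058288 to 151447124 had 6 calls of 13 tested genes, with Niban1 the 1 that was lower, and that from 34524586 to 43228316 had 5, in 4 of which WT was nearer Strep1. Chromosome 17 from 34109452 to 54255377 held 15 calls, all higher in Strep1, which include the 6 H2 genes, Ddr1 and Foxp4. On chromosome 13 from 111945675 to 120252315 WT was nearer Strep1 in all 8 calls, Ccl28 among them. On chromosome 5 from 108134815 to 115939736, with Dipk1a and Rnf212, WT was nearer Strep1 in 4 of 5. The rest were on chromosome 5 from 86214616 to 87998218 and on chromosome 2 from 51621976 to 59442386, with 4 calls each. Piwil1 lies on chromosome 5 outside the stretches.

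**Figure D3:**
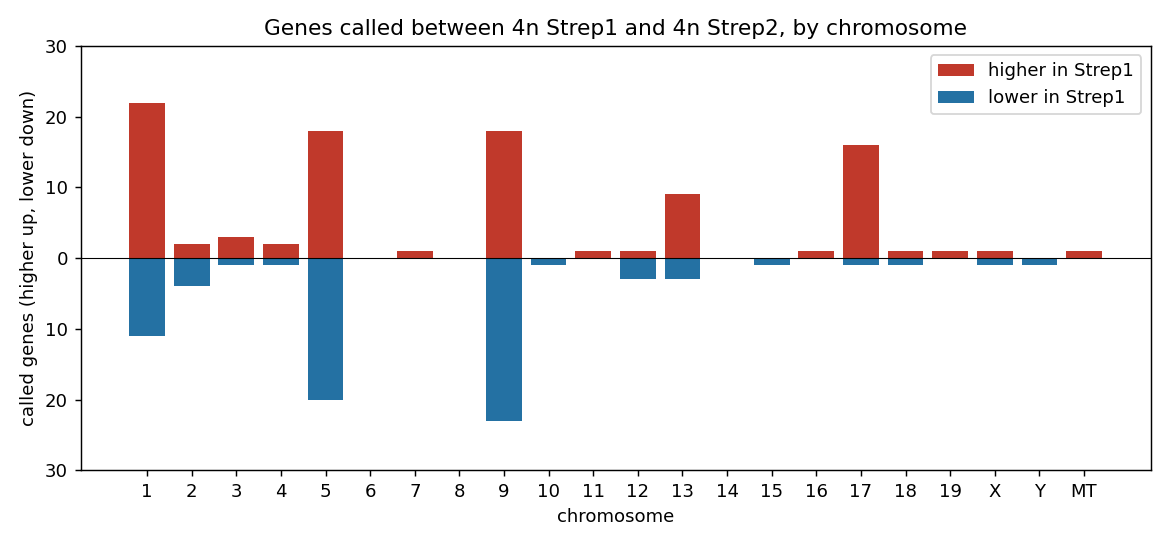
Number of genes called between the lines on each chromosome, with those higher in Strep1 above the axis and those lower in Strep1 below it. Chromosomes 9, 5, 1 and 17 hold 41, 38, 33 and 17 calls, and chromosomes 6, 8 and 14 hold none.

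A second source of variation besides the line ran through the 6 libraries. Over the genes tested, line means held 30.8% of the variance of the scaled log2 values. The first 2 principal components held 35.6% and 31.1%, and neither separated the lines alone. On the first, Strep1 scored -23.7, -28.8 and 17.1 and Strep2 -8.80, 30.5 and 13.8, so Strep1 replicate 3 and Strep2 replicates 2 and 3 shared its positive side. With the 3 WT libraries added, the first component (27.3%) placed Strep1 replicate 3 at 31.0 and Strep2 replicate 2 at 31.1, and the other 7 libraries between -34.0 and 9.69. The third (19.8%) had all 3 Strep1 libraries above 0, at 28.8, 1.15 and 19.5, and all 3 Strep2 libraries below, at -25.2, -9.01 and -22.4.

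Taking each library as its deviation from its own line mean, a step added after the data were seen, left a first component with 49.4% of the remaining variance. Strep1 scored -7.22, -23.2 and 30.5 on it and Strep2 -24.8, 25.1 and -0.25. Strep1 replicate 3 and Strep2 replicate 2 therefore lay together at one end, and Strep1 replicate 2 and Strep2 replicate 1 at the other. Across 18463 genes the deviations of Strep1 replicate 3 and Strep2 replicate 2 correlated at 0.44, the highest of the 9 pairs of a Strep1 with a Strep2 library. Strep1 replicate 2 and Strep2 replicate 1 came next at 0.39, and the lowest pair was at -0.52. Genes are not independent, deviations within a line sum to 0, and no test was made. Among genes with a mean of at least 5 RPM the first pair was at 0.41 and another pair was higher, at 0.48.

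**Figure D4:**
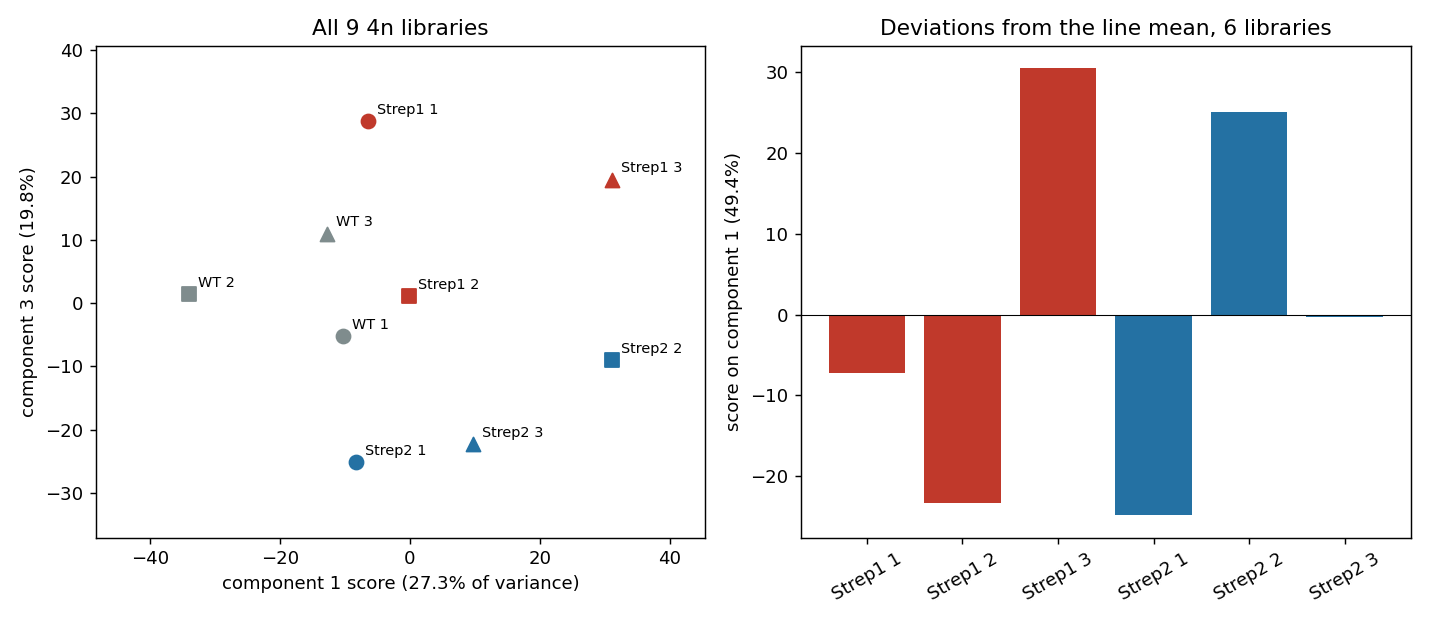
Left, scores of the 9 libraries of 4n cells on components 1 and 3, coloured by line. Strep1 replicate 3 and Strep2 replicate 2 share the right end, and component 3 separates the tagged lines. Right, bars from 0 give the score of each Strep1 and Strep2 library on the first component of deviations from the line mean, with those same libraries at 30.5 and 25.1.

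Strep1 replicate 3 and Strep2 replicate 2 had more of their reads on genes and fewer on repeats than the other 4 libraries. Sense reads on genes were 623462, 628571 and 709292 RPM in Strep1 and 599162, 731238 and 666649 RPM in Strep2, so Strep1 replicate 3 and Strep2 replicate 2 were the highest of the 9 libraries. Repeats held 110283, 107332 and 85720 RPM in Strep1 and 116543, 81311 and 99245 RPM in Strep2, with the same libraries lowest. The annotation class TEC of unverified transcripts (746 genes) had median deviations of 0.15, 0.18 and -0.34 in Strep1 and 0.41, -0.46 and 0.05 in Strep2 on the log2 scale. Estimated depth was 41.4 M in Strep1 replicate 3 and 53.1 M in Strep2 replicate 2. The part of these values in the component was not tested.

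The largest loadings at either end of that component include genes at which a single Strep1 library stood apart, Atp6ap1l and Lhfpl3 as the first 2 at the positive end and Grin2b as the first at the negative end, described further on. The others at the negative end were Pvrig, the clustered protocadherins Pcdha4, Pcdha5, Pcdha7 and Pcdha8, the olfactory receptors Olfr25, Olfr161 and Olfr1277 and the vomeronasal receptor Vmn1r90. Olfr161 had 4.70, 4.43 and 2.69 RPM in Strep1 and 6.85, 1.69 and 5.01 RPM in Strep2. At the positive end the 18S ribosomal RNA gene Rn18s came next, with 172, 350 and 784 RPM in Strep1 and 192, 410 and 248 RPM in Strep2, and the others were Rgsl1, Iqca, Kcnj6, Acot10, Hecw1, Erf and Atp6v1b1 at 0.54 to 4.55 RPM. Ribosomal RNA was depleted in library preparation, per the labels.

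The elongating spermatid list had median deviations of 0.23, -0.47 and 0.09 in Strep1 and -0.21, 0.20 and -0.01 in Strep2, so that Strep1 replicate 2 stood lowest. The mitochondrial list had 0.52, -0.04 and -0.50 in Strep1 and 0.13, 0.20 and -0.37 in Strep2. Between the tagged lines the count of called genes was 125 without both Strep1 replicate 3 and Strep2 replicate 2, and 109 of those were among the 170, all 109 with the same sign. Klb, Foxp4 and Niban1 were called in all 20 alternative settings, with log2 fold changes of 3.65 to 4.00, 2.64 to 3.01 and -6.57 to -5.48.

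At a few genes a single library stood apart from its line. A library was counted where it lay at least 2 on the log2 scale from the mean of its 2 fellows, those were within 0.5 of each other, and the level reached 1 RPM, a rule chosen after the values were seen. It was met 4 times in Strep1 replicate 1, 3 times in Strep1 replicate 2, 3 times in Strep2 replicate 2, once in WT replicate 2 and in no other 4n library. The 3 in Strep2 replicate 2 and the 1 in WT replicate 2 had predicted names and levels of 0.20 to 3.01 RPM. None of these genes was called between the lines.

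Atp6ap1l, related to a subunit of the vacuolar proton pump, had 0.0765, 38.8 and 48.4 RPM in Strep1 and 38.7, 52.1 and 42.0 RPM in Strep2, against 43.9, 35.1 and 39.5 RPM in WT. Map1b, a microtubule-associated protein, had 1.15, 38.6 and 45.7 RPM in Strep1 and 40.3, 48.0 and 45.9 RPM in Strep2, against 43.6, 32.7 and 40.2 RPM in WT. Strep1 replicate 1 was low at both, while the other 8 libraries lay between 32.7 and 52.1 RPM. The synaptic vesicle gene Sv2c lies between them and was low in the same library, at 0.140 RPM against 0.841 and 1.33 in the other Strep1 libraries. The 3 genes stand at 91.0, 96.3 and 99.7 Mb of chromosome 13. BB557941, on chromosome 2, was higher in Strep1 replicate 1, with 4.45, 0.195 and 0.193 RPM in Strep1 and 6.82, 7.38 and 7.42 RPM in Strep2.

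In Strep1 replicate 2, Lhfpl3 on chromosome 5 was low, with 3.07, 0.244 and 2.54 RPM in Strep1 and 5.27, 5.87 and 5.88 RPM in Strep2. Trpm3, a cation channel, had 1.63, 0.171 and 1.69 RPM in Strep1 and 0.109, 0.170 and 0.183 RPM in Strep2, so here Strep1 replicate 2 lay with Strep2 and its fellows stood apart. Pip5k1bos, near Trpm3 on chromosome 19, had 1.93, 0.280 and 2.26 RPM in Strep1 and 0.359, 0.396 and 0.548 RPM in Strep2. Grin2b, a glutamate receptor subunit named by its loading, was high in that library, with 0.357, 6.12 and 0.169 RPM in Strep1 and 0.239, 0.471 and 0.297 RPM in Strep2.

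In 1n Strep1 cells most of these genes departed in the library of the same number. Of the 7 Strep1 genes all 7 had the same sign in 1n Strep1 and 6 differed there by over 1 on the log2 scale. The exception was Pip5k1bos, with 8.44, 8.27 and 8.29 RPM in 1n Strep1. Atp6ap1l had 1.39, 57.2 and 54.2 RPM in 1n Strep1 and 48.4, 50.4 and 59.0 RPM in 1n Strep2, and Sv2c had 1.92, 16.5 and 17.6 RPM in 1n Strep1 and 17.6, 18.3 and 18.2 RPM in 1n Strep2. Lhfpl3 had 1.75, 0.120 and 1.41 RPM in 1n Strep1 and 2.78, 2.63 and 3.54 RPM in 1n Strep2. Replicate 1 of Strep1 was thus low in both populations at the first pair of genes, and replicate 2 at Lhfpl3. Grin2b had 7.45, 23.5 and 4.91 RPM in 1n Strep1, with replicate 2 again the highest. Across all genes, by contrast, same-numbered 4n and 1n Strep1 libraries did not deviate together, with correlations of 0.06, -0.16 and -0.07.

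**Figure D5:**
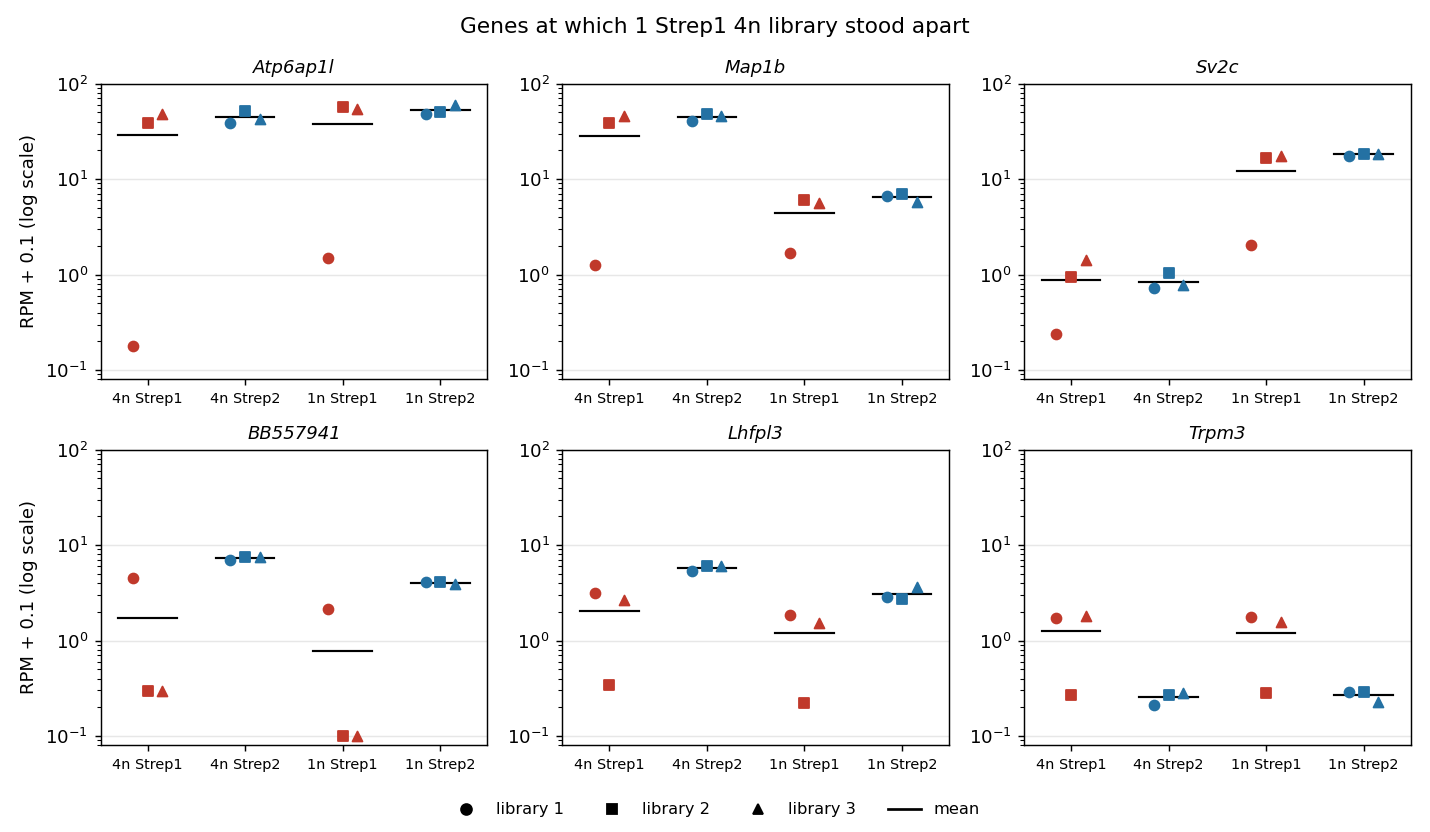
Deposited RPM plus 0.1 on a log axis for 6 genes at which 1 Strep1 library of 4n cells stood apart, in 4n and 1n cells with Strep1 left of Strep2 in each, a symbol per library and a bar at the mean. The circle (replicate 1) is low in 4n and 1n Strep1 for Atp6ap1l, Map1b and Sv2c and high for BB557941, and the square (replicate 2) is low for Lhfpl3 and Trpm3.

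The line difference was set beside that of 1n cells. Of the 170 genes called in 4n cells 152 were tested in 1n cells. In 1n cells 266 genes (1.27%) were called, with 118 (0.562%) higher and 148 (0.705%) lower in Strep1. Called in both populations were 104 genes, which is 61.2% of the 4n calls and 39.1% of the 1n calls, and 102 of them had the same direction. Klb averaged 30.5 RPM in 1n Strep1 and 2.50 in 1n Strep2, Foxp4 10.3 in 1n Strep1 and 2.78 in 1n Strep2, and Niban1 0.155 in 1n Strep1 and 26.6 in 1n Strep2. The difference between populations was tested directly, and 58 of 22824 genes (0.254%) were called, 34 with a more positive and 24 with a more negative line difference in 4n cells, 24 of them among the 170. Usp46 averaged 9.01 ± 1.32 RPM in 4n Strep1 and 36.6 ± 4.41 in 4n Strep2, and 16.2 ± 0.520 in 1n Strep1 and 16.3 ± 1.97 in 1n Strep2 (SD, n = 3 each). Afap1 averaged 2.06 RPM in 4n Strep1 and 16.9 in 4n Strep2, and 32.5 in 1n Strep1 and 28.0 in 1n Strep2. Per the library names 1n Strep1 and 1n Strep2 belong to different library series, so population and series cannot be told apart.

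The genes whose level over the 18 long RNA libraries was most like Klb were Lgi2, H2-Q10 and Foxp4. For Foxp4 they were H2-Q10, Ppm1m and Klb, and for Niban1 Rpl29, Kcnip4 and Col6a5. All were ranked by Pearson correlation, which here follows the split between the lines.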

How the data were processed

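Long RNA libraries were made, per the labels' protocols, from 100 ng of total RNA after removal of ribosomal RNA, with a stranded kit, and read as pairs of 100 bases. The authors deposited sense and antisense values as RPM over genes, tRNAs, piRNA clusters and repeats on GRCm39. The submitters' processing notes name STAR, featureCounts, Salmon 1.3.0 and DESeq2 without assigning each step, and the RPM denominator is not given in the sources used here. Only 41.3% to 42.8% of values were within 0.01 of whole reads in the 4n libraries, so counts could not be recovered and no count model was run. Reads at repeats and near copies may be split.

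Values were analysed as log2(RPM + 0.1), a scale on which a fold change understates low genes, in R 4.3.3 with limma 3.58.1 (trend on). Features of at least 0.3 RPM in at least 3 of the 9 4n libraries were kept and scaling between libraries used trimmed log ratios (30% of ratios and 5% of levels trimmed). All 9 shared a spread, the contrast was Strep1 minus Strep2, and Benjamini-Hochberg adjustment at 0.05 was made within genes, repeats, clusters and tRNAs. Printed RPM are as deposited, and folds come from scaled values. The authors' deposited Salmon signal was taken as log2(signal + 3), with at least 10 in at least 3 libraries. The authors' deposited log2 fold changes and p-values against WT were copied for Klb, Foxp4, Niban1, Ccl28 and Piwil1. Sums were compared by exact two-sided permutation. Figures were drawn with matplotlib 3.10.9.

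Named genes were Klb, Foxp4, Niban1, Piwil1, the 15 largest calls in each direction with at least 1 RPM, no overlap of libraries and no predicted name, called list members, called repeats and clusters, the 10 largest loadings on each side, the 10 smallest interaction p (1 of which is not reported here), and the 3 genes most correlated with each of Klb, Foxp4 and Niban1. Depth was estimated by taking the most frequent of the low nonzero gene values in a library as a single read. Alternatives were other pseudocounts, filters and scalings, array weights, the replicate block, the 6 Strep libraries alone, each library left out, the omission of both Strep1 replicate 3 and Strep2 replicate 2, and, added after the data were seen, the Salmon signal and that omission for the gene lists. The members, gene lists and rules were chosen with earlier results of these data known. The fit of the 4n contrast was also run on generated data with 200 genes changed. It recovered 64 of 100 2-fold and 97 of 100 4-fold changes, with 12 false calls. With no change generated it made 0 false calls, and the other fits were not tested on generated data. Each library was generated independently, so these rates do not cover variation that several libraries share, such as the component of deviations described above. Deviations of same-numbered libraries of the tagged lines correlated at 0.19, -0.40 and 0.08. These values cannot decide whether replicate numbers pair the lines, since deviations within a line sum to 0. The reported fit used no pairing.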

Additional observations from a re-analysis of the deposited data

Results flagged for a closer look

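The size of the line difference differed between 4n and 1n cells, by a test of that difference (limma), in 58 genes, and 9 of the 10 of smallest p with known names are given as the 4n minus the 1n difference on the log2 scale. It was positive for Cfhr3 (4.54), Parp3 (4.07), Sema3f (3.75), Nfxl1 (1.21), Ren1 (2.59) and Ccl28 (2.38), and negative for Afap1 (-3.16), Usp46 (-1.97) and Hmcn1 (-3.40). Cfhr3 is listed at 0 in all Strep1 libraries of both populations, against means of 0.486 RPM in 4n Strep2 and 14.3 RPM in 1n Strep2, so its value follows the level of Strep2 and the pseudocount. Parp3 averaged 1.54 ± 0.168 RPM in 4n Strep1 and 0.811 ± 0.0796 in 4n Strep2, and 0.648 ± 0.158 in 1n Strep1 and 6.65 ± 1.18 in 1n Strep2 (SD, n = 3 each). Hmcn1 averaged 0.718 and 0.686 RPM in 4n Strep1 and 4n Strep2, and 7.64 and 0.593 RPM in 1n Strep1 and 1n Strep2. Sema3f averaged 0.178 and 0.541 RPM in 4n Strep1 and 4n Strep2, and 0.136 and 7.14 RPM in 1n Strep1 and 1n Strep2. Nfxl1 averaged 20.6 RPM in 4n Strep1 and 20.5 in 4n Strep2, and 12.8 in 1n Strep1 and 28.6 in 1n Strep2. Ren1 was near 0 in 4n cells of both lines, where it did not pass the filter of the 4n fit. In 1n cells it averaged 0.00577 RPM in Strep1 and 0.549 RPM in Strep2, so its value follows the level of 1n Strep2 and the pseudocount. In none of 15 alternative settings did these 9 lose their call or turn their sign. The 1n lines are of different library series.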

How the results depend on the processing

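Except with array weights, the count of called genes was 104 to 173 over the alternatives (170 as reported), and 94 genes were called in all 9 fits that left out 1 library. Without 1 library the counts were 104 to 167 in all, 54 to 88 higher and 46 to 79 lower, with the lowest total without Strep1 replicate 2, and 110 without Strep1 replicate 1. Outside that range, limma's array weights gave 3987 calls (1598 higher, 2389 lower), 60 repeats and 218 piRNA clusters. That estimate did not converge and put a weight of 8.30 on Strep2 replicate 3. With the replicate block the counts were 140 genes and 8 clusters, and 56 genes for the difference between populations. Called repeats were 1 with no filter or with the block, 4 with no further scaling, 0 with the 6 Strep libraries alone and 1 to 2 without 1 library. Called clusters were 2 with no filter or with the 6 libraries, 0 with no further scaling, 25 without both Strep1 replicate 3 and Strep2 replicate 2, and 0 to 82 without 1 library. The cause was not tested. Called list members were 13, and 8 without both those libraries. Over all settings of named genes, sign and side of the threshold were kept 635 times, the call was lost 61 times and no sign turned. Differences between populations numbered 46 to 83. Stretches held 126 genes with 5 Mb gaps, 141 with 20 Mb and 99 on the Salmon signal.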
